A study of Mus musculus with 10 samples.

Results

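The 10 genes described here are 4 keratins (*Krt7*, *Krt8*, *Krt18*, *Krt19*) and 6 claudins (*Cldn3*, *Cldn4*, *Cldn6*, *Cldn7*, *Cldn10*, *Cldn5*), taken by symbol, with earlier results of these data known, from the 27716 genes that every count matrix of the developing mouse pancreas shares. All 10 were present in each of the 8 libraries. Their levels were followed through acinar, ductal, Neurog3, Fev, hormone, mesothelial and endothelial cells and from embryonic day (E) E12.5 through E14.5 to E17.5. In outline, *Krt7* was high in the Neurog3 and Fev classes and in the mesothelium, *Cldn4* peaked in the Fev class, *Cldn3* and *Cldn10* were far lower in the Neurog3 class than in ductal cells, *Krt19* and *Cldn10* rose over stages in the mesothelium, and *Cldn5* was an endothelial transcript.

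Keratins are the intermediate filament proteins of epithelia, and each filament pairs a type II keratin (*Krt7*, *Krt8*) with a type I keratin (*Krt18*, *Krt19*). *Krt8* and *Krt18* are known from simple, single-layered epithelia in general, and *Krt7* and *Krt19* from ducts and the mesothelium. Claudins are membrane proteins that form the strands of tight junctions, where some seal the space between cells (*Cldn3*, *Cldn4*, *Cldn5*, *Cldn7*) and others form ion pores (*Cldn10*). *Cldn5* is the classical claudin of blood vessels, and *Cldn6* is known from embryonic epithelia.

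The study sequenced single cells of pooled mouse embryonic pancreata with the droplet-based 10x Chromium system. Swiss Webster pancreata gave 4 libraries of all live cells with the version 1 kit. These were 1 each of E12.5 and E17.5, both labelled batch 2, and E14.5 as batch 1 and batch 2. With the version 2 kit, 3 libraries held cells negative for CD140a, the mesenchymal surface protein encoded by *Pdgfra*. There was 1 per stage, that of E17.5 as 2 wells of 1 suspension that were summed. A further version 2 library held GFP-positive and tdTomato-positive cells of E14.5 Fev-Cre;ROSA26mTmG embryos on a C57BL/6J background, in which cells that have expressed Cre, driven by a Fev transgene, and their progeny turn from tdTomato to GFP. The Fev-Cre library therefore differs from the others in strain, sort and transgenes, and its reporter marks cells by past as well as present Cre. Embryos were pooled before sorting, so a library is the replicate, and p-values between classes measure the spread between pools. The pools also differ in stage, kit, sort and strain, so this spread includes how a fold differs between them. The version 1 against the version 2 kit cannot be told apart from all live against CD140a-negative cells. Pancreata were dissociated for 10 min at the first, 15 min at the middle and 30 min at the last stage, and the version 2 stages were each prepared on a different day. Stage, litter, dissociation time and, in version 2, day therefore cannot be told apart.

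A well held 15671934 to 127151679 UMIs (unique molecular identifiers, 1 per captured transcript), and the cells kept had medians of 2952 to 11783 UMIs. Of 57982 cells, 6.13% were set aside as doublets and 8.03% stayed unnamed, with the most doublets in the version 2 E12.5 library and 18.4% unnamed in that of E14.5. The version 1 E17.5 library stood apart, since haemoglobin took 60.9% of its UMIs and 2309 of its 4635 barcodes were kept, and its acinar-like class held 31 cells against 2048 in the version 2 E17.5 library. Pairs of wells of the same kit version shared 0.494% to 1.79% of the barcodes of the smaller. Classes are named "-like" because they were rebuilt from clusters and lists of marker genes, with all 10 keratins and claudins held out of the clustering. Of a class's own markers, 9 of 10 acinar, 8 of 10 ductal, 7 of 8 beta and 3 of 4 epsilon markers were above 0 in every library of that class, and all were for the Neurog3, Fev, alpha, delta, mesothelial and endothelial lists. Summed acinar markers reached 9908 to 156530 CPM (counts per 1e6 UMIs of the class) in acinar-like cells against 219.6 to 2636 in ductal-like cells, ductal markers 2734 to 24562 CPM in ductal-like cells against 552 to 1561 in acinar-like cells, Neurog3 markers 7526 to 13784 CPM in Neurog3-like cells against 686 to 3675 in Fev-like cells, and Fev markers 2638 to 4751 CPM in Fev-like cells against 1199 to 1733 in Neurog3-like cells. The 7 general epithelial markers summed to 215 to 361 CPM in mesothelial-like cells, 10.8 to 100.5 in other mesenchyme and 1679 to 3153 in ductal-like cells, with 3 of the 7 above 0 in every mesothelial-like library and 6 of 7 in other mesenchyme. Summed mesothelial markers ranged from 1027 to 4894 CPM in mesothelial-like cells against 269 to 574 in other mesenchyme. Mesenchymal markers overlapped, at 1096 to 13948 CPM in mesothelial-like cells and 1289 to 16552 in other mesenchyme.

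In the mouse genome (mm10, GENCODE M21 positions) several of the genes are neighbours. On chromosome 15, *Krt7* spans 101411043 to 101430313 on the plus strand, *Krt8* spans 101996698 to 102004482 on the minus strand and *Krt18* spans 102028180 to 102032027 on the plus strand, so that the genes of the classical *Krt8*-*Krt18* filament pair lie 23697 bases apart, start to start. *Krt19* lies on chromosome 11 from 100140810 to 100148665 (minus), with *Cldn7* on the same chromosome from 69964779 to 69967885 (plus). *Cldn4* (chromosome 5, 134945119 to 134946934, minus) and *Cldn3* (134986214 to 134987472, plus) lie 39279 bases apart, and both consist of 1 exon. *Cldn5*, also of 1 exon, lies on chromosome 16 from 18776847 to 18778262 (plus). *Cldn6* spans 23679249 to 23682446 on chromosome 17 (plus), and *Cldn10* spans 118787908 to 118875489 on chromosome 14 (plus), the longest of the 10 at 87582 bases.

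Promoter sequences were looked up in RefSeq (GRCm38.p6), which held 9 of the 10 genes and not *Krt19*. The 150 bases before the start are shown for *Cldn3* and *Cldn4*, because these neighbours differed in the class with the highest level, and for *Cldn5*, because it was endothelial. Capitals mark the GC box (GGGCGG, either strand).
Cldn3, chr5:134986064-134986213, plus strand: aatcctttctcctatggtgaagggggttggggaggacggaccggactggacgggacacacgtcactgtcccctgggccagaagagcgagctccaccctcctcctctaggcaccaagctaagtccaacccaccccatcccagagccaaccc
Cldn4, chr5:134946935-134947084, minus strand: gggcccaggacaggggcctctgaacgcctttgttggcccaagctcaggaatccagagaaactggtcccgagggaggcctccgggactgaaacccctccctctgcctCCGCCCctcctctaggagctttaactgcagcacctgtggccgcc
Cldn5, chr16:18776697-18776846, plus strand: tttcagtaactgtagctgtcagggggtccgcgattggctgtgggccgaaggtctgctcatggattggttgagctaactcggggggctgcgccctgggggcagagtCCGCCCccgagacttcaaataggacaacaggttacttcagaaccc
The windows were 62% GC for *Cldn3*, 64.7% for *Cldn4* and 58.7% for *Cldn5*, against a median of 54% over 32851 promoters of this length. *Cldn4* held 1 GC box and 1 E-box (CANNTG), *Cldn5* held 1 GC box, and neither of these nor TATAAA nor CCGGAA (both strands) occurred in the *Cldn3* window. GGGCGG occurred in 28.6% of all promoters, CANNTG in 47.7%, TATAAA in 7.57% and CCGGAA in 9.23%, and a match describes these letters only.

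Each level is a CPM value, for which the cells of 1 class in 1 library were pooled and the UMIs of the gene divided by all UMIs of that pool. The members fell into different orders over the classes. *Krt7* was highest in the epsilon-like class (1249.6 CPM on average, n = 2 libraries), the Neurog3-like class (1162 ± 320 CPM, SD, n = 7) and the Fev-like class (1136 ± 325 CPM, n = 7), then in mesothelial-like cells (522 ± 342 CPM, n = 8), and reached only 45.9 ± 23.4 CPM in acinar-like cells. At E12.5 it was lower in mesothelial-like cells (192 and 212 CPM, version 1 and version 2) than in alpha-like cells (629.6 and 483 CPM). Its ductal-like range lay wholly above its acinar-like range, while the ranges of its other neighbouring classes overlapped. *Krt8*, the type II keratin found in all simple epithelia, was spread more evenly, from 1217 ± 322 CPM in Fev-like, 1050 ± 296 in ductal-like and 1038 ± 280 in Neurog3-like cells to 123 ± 126 in mesothelial-like cells. Its filament partner *Krt18* was led by ductal-like cells (1366 ± 670 CPM) and acinar-like cells (651 ± 510 CPM) and lay between 281 and 428 CPM in the endocrine classes. By mean level the members of the *Krt8*-*Krt18* pair thus did not have the same leading class, but the *Krt8* ranges of Fev-like and ductal-like cells overlapped. *Krt19* had its highest mean over all libraries in mesothelial-like cells (691 ± 657 CPM), with overlapping ranges in Neurog3-like (308 ± 132) and ductal-like (242 ± 164) cells. At E12.5 the order differed, with 105 and 133 CPM in mesothelial-like against 552 and 291 CPM in Neurog3-like cells (version 1 and version 2). *Krt19* was low in alpha-like (17.7 ± 13.2 CPM) and delta-like (15.7 ± 3.45 CPM, n = 4) cells.

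Among the claudins, *Cldn3* was highest in the exocrine classes, with 877 ± 326 CPM in ductal-like and 344 ± 73.0 in acinar-like cells, and had means of 61.5 to 164 CPM in the endocrine classes against 11.4 CPM in immune-like cells. Both steps down its order, ductal-like to acinar-like and acinar-like to delta-like, separated the libraries completely. *Cldn4* stood at 1052 ± 461 CPM in Fev-like cells and at 85.0 to 202 CPM in ductal-like, acinar-like, Neurog3-like, alpha-like and beta-like cells. Epsilon-like cells came second with 506 CPM (n = 2). *Cldn6* was led by Neurog3-like (878 ± 355 CPM) and ductal-like (697 ± 381 CPM) cells, which overlapped, and at E12.5 ductal-like cells were the higher of the pair in both kits. *Cldn7* was the most even of the claudins, at 429 ± 114 CPM in ductal-like, 280 ± 87.4 in acinar-like and 219 to 236 CPM in every endocrine class. *Cldn10*, the pore-forming member, was at 288 ± 93.3 CPM in acinar-like and 283 ± 125 in ductal-like cells, at 82.4 ± 112 in mesothelial-like cells, and at 2.89 to 12.4 CPM in the Neurog3, Fev, alpha and beta classes. *Cldn5* was at 926 ± 330 CPM in endothelial-like cells and at means of 27.2 CPM or less elsewhere. Of 130 steps between neighbouring classes over the 10 genes, the library ranges were apart at 9.

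**Figure D1:**
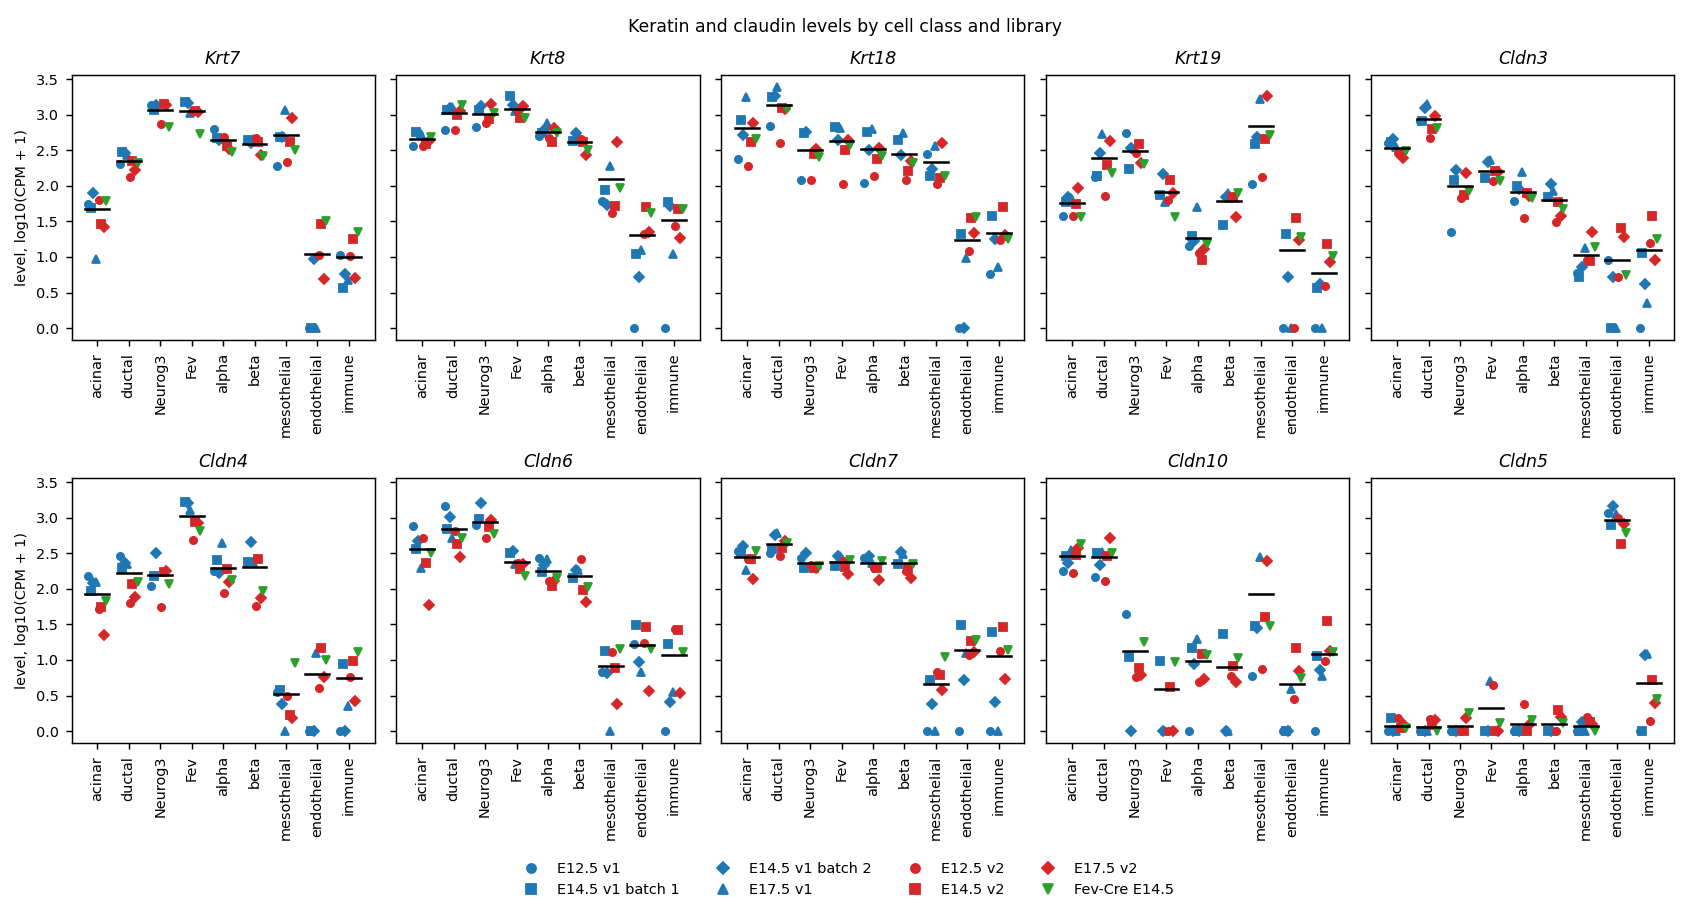
Level of each of the 10 genes in 9 classes, as log10(CPM + 1), where each point is 1 library and the black bar is the mean over libraries. *Cldn5* stands at 433 to 1459 CPM in the endothelial-like column and near 0 in the others, *Cldn4* is highest in the Fev-like column, and *Krt7* in the Neurog3-like and Fev-like columns.

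The share of cells with at least 1 UMI of a gene told the same classes apart after each cell was thinned to 2000 UMIs (version 1) or 3000 UMIs (version 2), which sets the depth equal within a kit. Immune-like cells, which should lack the epithelial members, served as the background and held a UMI in 0.557% (*Cldn5*) to 5.27% (*Krt8*) of cells on average. *Cldn4* was detected in 78% to 88.4% of Fev-like cells, against at most 36.9% of Neurog3-like, 25.4% to 56.2% of alpha-like and 0 to 3.41% of immune-like cells. *Krt7* was found in 73.7% to 91.9% of Neurog3-like and 70.7% to 92% of Fev-like cells against 33.2% to 48.7% of ductal-like cells and, on average, 9.72% of acinar-like cells. *Cldn5* was found in 65.4% to 93.2% of endothelial-like cells and, on average, in 0.070% of acinar-like cells. *Cldn10* in the Fev-like (mean 0.691% of cells), alpha-like (2.09%) and beta-like (1.58%) classes, and *Cldn3*, *Cldn4*, *Cldn6* and *Cldn7* in the mesothelial-like class (means of 0.567% to 2.49%), were near the immune-like shares of 1.08% to 2.08% for these genes, and are read as background. Endothelial-like cells were likewise near background for all members but *Cldn5*, with means of 0.208% to 5.35%.

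Class comparisons were made on UMI sums per library with edgeR's quasi-likelihood test, with library as a block, and a gene was called at a Benjamini-Hochberg adjusted p below 0.05 over all genes tested and a change of at least 2-fold. Folds follow a trimmed-mean (TMM) scaling of the sums, so they can depart from the ratio of CPM where enzymes or hormones fill a class. Classes were drawn from other genes of the same cells, and the p-values take the classes as given. Comparisons that share a class also share its libraries. Ranges and medians are over every library holding a class, and folds over the libraries that hold both. Folds and calls within version 2 include the Fev-Cre library.

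The first comparison asked how the ductal trunk and the acinar tips differ. *Krt7* ranged from 131 to 299.6 CPM in ductal-like cells (median 216) and from 8.25 to 79.0 CPM in acinar-like cells (median 51.5), and *Krt19* from 71.1 to 541 CPM (median 172) against 35.1 to 91.1 (median 56.1). *Krt7* did not overlap between the classes, and both genes were higher in ductal-like cells within 8 of 8 libraries. They were the called members, at log2 folds of 1.86 ± 0.20 (SE, adjusted p = 1.48e-05) and 1.45 ± 0.15 (adjusted p = 1.23e-05), that is 2 of 9 tested where 9.11% of 13604 genes were called higher and 5.9% lower. *Krt8*, *Krt18*, *Cldn3*, *Cldn4* and *Cldn6* were higher by 0.63 to 0.90 on the log2 scale with adjusted p from 5.02e-05 to 0.00271, under the 2-fold requirement. *Cldn7* differed by 0.24 ± 0.15 (adjusted p = 0.240) and *Cldn10* by -0.46 ± 0.10 (adjusted p = 0.00220), with *Cldn10* lower in ductal-like cells in 6 of 8 libraries. With scaling totals that leave out secretory products the median of all genes moved from 0.06 to 0.33, 77% instead of 60.7% of called genes were higher, and *Krt8* (1.03), *Krt18* (1.08) and *Cldn3* (1.15) also passed 2-fold, as *Cldn3* did within version 1 (1.01). Within kits, the *Krt7* fold was 2.06 in version 1 (adjusted p = 6.21e-06) and 1.71 in version 2 libraries (adjusted p = 0.0216).

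The other claudins, a list of 16 genes of which 8 were tested, had 4 called higher and 1 lower in ductal-like cells (list median 0.82, all genes 0.06). *Cldn2*, a cation pore, was at 12.1 against 0.297 CPM (log2 fold 2.95 ± 0.52) and *Cldn9* at 54.4 against 5.15 CPM (2.85 ± 0.34), both higher in ductal-like cells, while *Cldn18* was at 0.398 against 20.7 CPM (-4.18 ± 0.94). The list of other keratins also holds *Krtcap2* and *Krtcap3*, keratinocyte-associated genes that are not keratins. Of 10 genes of this list tested, 3 were higher and 2, including *Krtcap2*, lower, and *Krt5*, a keratin of stratified epithelia, was at 0.898 against 0.0553 CPM (2.74 ± 0.81). Tight junction partners had 3 higher and 1 lower of 22, desmosome and keratin linkers 2 and 1 of 11, and other intermediate filaments 1 and 2 of 8.

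Neurog3-expressing cells are the endocrine progenitors that arise within the ductal trunk. *Krt7* ranged from 674 to 1415 CPM in Neurog3-like cells (median 1365) against 131 to 299.6 in ductal-like cells, without overlap, and its ratio was 3.20 to 8.25 over the 7 libraries. *Cldn3* ranged from 21.7 to 167 CPM (median 82.5) against 466 to 1432 (median 819), again without overlap and in the other direction. *Cldn10* was at 0 to 43.3 CPM (median 6.59) against 129 to 524 CPM (median 299), so the Neurog3-like class sat at the level of immune-like cells (mean 11.1 CPM). *Krt18* ranged from 119 to 576 CPM against 397 to 2489 CPM and was lower in 7 of 7 libraries. The log2 folds were 2.39 ± 0.14 for *Krt7* (adjusted p = 3.80e-09), -2.95 ± 0.14 for *Cldn3* (adjusted p = 4.13e-10), -5.16 ± 0.31 for *Cldn10* (adjusted p = 5.66e-09) and -1.96 ± 0.10 for *Krt18* (adjusted p = 1.40e-09). Thus 1 member was called higher and 3 lower of 9 tested, where 13.3% of 10835 genes were called higher and 17.7% lower. The fold of *Krt7* was 2.24 within version 1 and 2.46 within version 2 libraries, and that of *Cldn3* was -3.09 and -2.90.

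The type II partner of *Krt18* did not follow it, since *Krt8* was at 1038 ± 280 CPM in Neurog3-like against 1013 ± 300 CPM in ductal-like cells of the same 7 libraries (0.04 ± 0.09, adjusted p = 0.712). *Cldn4* (0.17 ± 0.20), *Cldn6* (0.41 ± 0.22) and *Krt19* (0.66 ± 0.29) missed the threshold with adjusted p of 0.479, 0.121 and 0.0596, and *Cldn7* was lower by under 2-fold (-0.87 ± 0.11, adjusted p = 1.22e-05), and was called without the version 2 E12.5 library (-1.03). The *Krt19* fold averages opposite directions. In version 2 it was at 291 CPM in Neurog3-like against 71.1 in ductal-like cells at E12.5, but at 210 against 425.5 CPM at E17.5. Tight junction partners had 10 genes called lower and 2 higher of 20 tested (list median -0.94, all genes -0.04), and desmosome and keratin linkers 4 lower and 0 higher of 10 (median -0.82). Of the other claudins, 3 were higher and 3 lower of 7, with *Cldn11* at 93.7 against 4.07 CPM (5.27 ± 0.56) and *Cldn8* at 1.11 against 33.4 CPM (-5.10 ± 0.35). The neurofilament gene *Nefm* was at 104 against 3.79 CPM (5.93 ± 0.47). Other intermediate filaments had 3 higher and 1 lower, *Vim*, of 4, and other keratins 1 higher and 1 lower of 5, the latter being *Krt23* at 1.59 against 20.8 CPM (-4.67 ± 0.44).

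The Fev class follows Neurog3 on the path to hormone cells. *Cldn4* was at 1641, 1615 and 1267 CPM in the Fev-like cells of the version 1 libraries of E14.5 (batch 1, then batch 2) and E17.5, at 482, 859 and 848 CPM in those of version 2 in order of stage, and at 649.9 CPM in Fev-Cre. In Neurog3-like cells it ranged from 54.8 to 317 CPM (median 151), so no library overlapped, and every version 1 value of the Fev-like class was above every version 2 value. Within the 6 libraries with both classes the ratio was 4.80 to 10.9, and the log2 fold was 2.45 ± 0.13 (adjusted p = 1.95e-10), or 2.80 within version 1 and 2.32 within version 2. *Cldn6* moved the other way, from 516 to 1588 CPM in Neurog3-like (median 779.8) to 152 to 342 CPM in Fev-like cells (median 222), again without overlap (-2.03 ± 0.11, adjusted p = 2.28e-10). *Krt19* was at 174 to 552 CPM (median 291) against 35.0 to 146 CPM (median 74.4), and its log2 fold was -1.95 ± 0.16 (adjusted p = 2.72e-08), or -1.27 in version 1 and -2.18 in version 2. These 3 were the members called of 8 tested, 1 higher and 2 lower, where 9.11% of 8738 genes were called higher and 8.8% lower.

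*Krt7*, *Krt8*, *Krt18* and *Cldn7* differed by -0.16 to 0.04 on the log2 scale between the Fev-like and Neurog3-like classes, with SE of 0.10 to 0.12 and adjusted p of 0.299 to 0.925, and *Cldn3* by 0.32 ± 0.14 (adjusted p = 0.0803). *Cldn10* (3.37 against 7.23 CPM) and *Cldn5* fell under the low-count filter. *Cldn10* was called lower in 4 alternatives, without the filter (-1.43, adjusted p = 0.0108), at Leiden resolution 2 (-2.26), within version 2 (-1.52) and without version 1 E14.5 batch 2 (-1.43). Of the fixed lists, tight junction partners had 2 higher and 3 lower of 16, with the junction adaptor *Cgnl1* at 2.72 against 16.3 CPM (-2.52 ± 0.40), and *Cldn12* was the 1 other claudin called of 4, at 9.23 against 57.3 CPM (-2.48 ± 0.22). *Krt15* (0.807 against 11.9 CPM, -3.42 ± 0.56) and *Nefm* (24.5 against 114 CPM, -2.07 ± 0.23) were lower in Fev-like cells. Desmosome and keratin linkers had 2 higher and 1 lower of 8, other keratins 0 and 1 of 4 and other intermediate filaments 1 and 2 of 4. With totals without secretory products the median of all genes moved from 0.02 to 0.19 and the share of called genes that were higher from 50.9% to 61.2%.

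**Figure D2:**
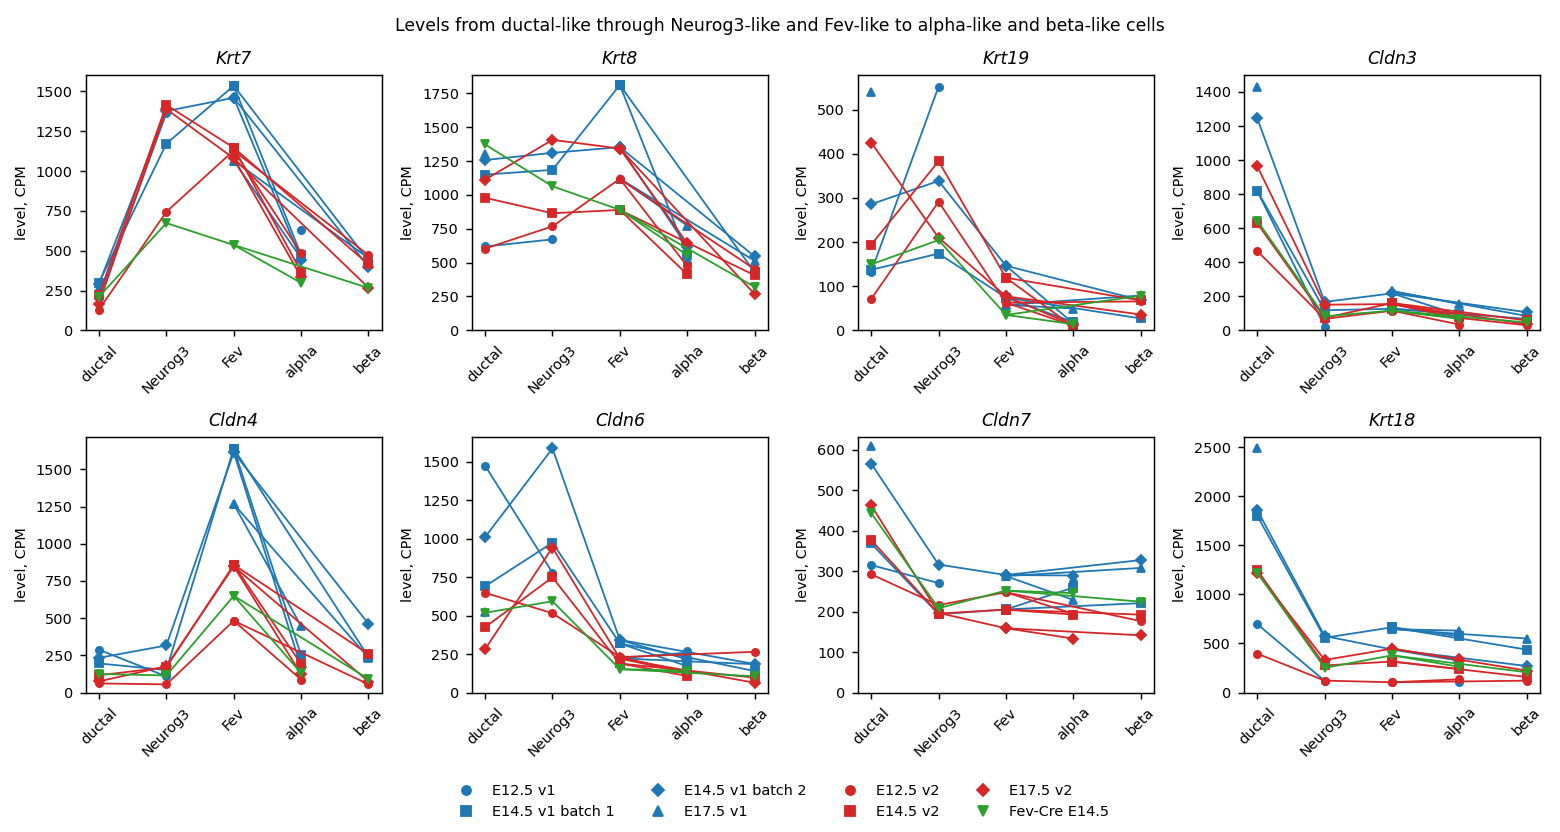
Level in CPM of 8 genes along the course from ductal-like through Neurog3-like and Fev-like to alpha-like and beta-like cells, with 1 line per library. *Cldn4* rises at the Fev-like class, where it reaches 482 to 1641 CPM, and is lower again in both hormone classes, while *Krt7* is high at the Neurog3-like and Fev-like steps and *Cldn3* drops at the Neurog3-like step.

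From the Fev class to glucagon-producing alpha cells, *Cldn4* went from the values above to 87.1 to 446 CPM (median 173), lower in 7 of 7 libraries and without overlap (-2.28 ± 0.14, adjusted p = 1.96e-09). *Krt7* was at 298 to 483 CPM in the alpha-like cells of the 7 libraries compared, and at 629.6 CPM in the version 1 E12.5 library, which held too few Fev-like cells, against 536 to 1536 CPM (median 1129) in Fev-like cells, so it was lower in 7 of 7 libraries (-1.26 ± 0.10, adjusted p = 5.43e-08). *Krt19* was at 8.07 to 49.5 CPM (median 13.6), where immune-like cells reached 14.3 CPM, and was lower (-2.11 ± 0.27, adjusted p = 9.45e-06). These were 3 of 8 tested members called lower and 0 higher, where 3.86% of 8166 genes were called lower and 5.28% higher. *Krt8* (-0.89 ± 0.10), *Cldn3* (-0.83 ± 0.13) and *Cldn6* (-0.39 ± 0.12) were lower by under 2-fold with adjusted p of 3.77e-06, 6.82e-05 and 0.0176. *Krt18* (-0.11 ± 0.10, adjusted p = 0.426) and *Cldn7* (0.06 ± 0.09, adjusted p = 0.676) missed the threshold. *Cldn10*, under the low-count filter at 10.1 against 2.89 CPM, was called higher by DESeq2 (2.07, adjusted p = 0.0168) and without the filter (1.30, adjusted p = 0.0109). Summed epsilon markers were at 216 to 29936 CPM in alpha-like against 13.1 to 246 CPM in Fev-like cells. Their part in these results was not tested. *Vim*, the mesenchymal filament, was at 19.2 against 255 CPM (-3.10 ± 0.22) and *Nefm* at 84.8 against 22.8 CPM (1.93 ± 0.17), while *Krt1* (1.73 ± 0.30) and the junction protein gene *Cgn* (1.72 ± 0.35) were higher. Tight junction partners had 1 higher and 3 lower of 13, other claudins 0 and 1 of 4, other keratins 1 and 0 of 4, desmosome and keratin linkers 1 and 0 of 6, and other intermediate filaments 1 and 1 of 3. The *Krt7* fold was under 2-fold when doublets were kept (-0.89) or clusters were cut more finely (-0.94, Leiden resolution 2).

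In insulin-producing beta cells the same Fev-like sums were the reference. *Cldn4* was at 55.5 to 461 CPM (median 234), lower in 7 of 7 libraries (-2.22 ± 0.16, adjusted p = 7.29e-07), and *Krt7* at 266.0 to 472 CPM (median 414), also lower in all 7 (-1.18 ± 0.12, adjusted p = 8.38e-06). *Krt8* was at 268 to 546 CPM (median 429) against 889 to 1811 CPM in Fev-like cells, without overlap (-1.20 ± 0.12, adjusted p = 8.38e-06), and *Cldn3* at 30.3 to 106 CPM against 115 to 230.4 CPM (-1.11 ± 0.11, adjusted p = 1.07e-05). Thus 4 members were called lower and 0 higher of 8, where 3.86% of 7201 genes were called lower and 5.85% higher. *Krt19* (0.09 ± 0.26, adjusted p = 0.845), *Krt18* (-0.31 ± 0.13, adjusted p = 0.0780) and *Cldn7* (0.26 ± 0.12, adjusted p = 0.106) missed the threshold. *Cldn6* was lower by under 2-fold (-0.46 ± 0.15, adjusted p = 0.0308). Beta markers summed to 7027 to 401430 CPM in beta-like cells, which also held 3480 to 33712 CPM of alpha markers, against 5092 to 12770 CPM of alpha markers in Fev-like cells. The part of this mixture was not tested. At Leiden resolution 2, *Krt7* (-0.89) and *Krt8* (-0.96) were under 2-fold and 2 members were called. *Krt7* was under 2-fold with doublets kept (-0.92) and *Cldn3* within version 1 (-0.91). *Vim* was at 48.9 against 255 CPM (-2.19 ± 0.31), the tight junction gene *Ocln* at 18.9 against 57.8 CPM (-1.19 ± 0.15), the desmosomal gene *Pkp4* at 51.6 against 17.4 CPM (1.78 ± 0.18) and *Krtcap2*, which is not a keratin, at 426 against 202 CPM (1.41 ± 0.19). The list counts, higher and lower, were 0 and 2 of 11 tight junction partners, 0 and 1 of 3 other claudins, 1 (*Krtcap2*) and 0 of 3 on the list of other keratins, 1 and 0 of 4 desmosome and keratin linkers, and 0 and 1 of 3 other intermediate filaments.

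Alpha-like and beta-like cells were then set against each other directly. *Krt19* was the member called, at 27.1 to 79.0 CPM (median 68.0) in beta-like against 8.07 to 49.5 CPM (median 13.6) in alpha-like cells, higher in 7 of 7 libraries with overlapping ranges (2.35 ± 0.20, adjusted p = 2.27e-06). That is 1 of 9 tested, where 4.29% of 9439 genes were called higher and 3.75% lower. The fold was 2.54 within version 2 (adjusted p = 2.20e-04) and 1.26 within version 1 libraries (adjusted p = 0.0567), where no member was called. Detection followed, with *Krt19* in 11.7% of beta-like and 2.95% of alpha-like cells on average, against 1.23% of immune-like cells. *Krt8* was lower in beta-like cells in 7 of 7 libraries by under 2-fold (-0.33 ± 0.10, adjusted p = 0.0277). *Krt18* (-0.21 ± 0.09, adjusted p = 0.128, lower in 7 of 7) and *Cldn3* (-0.32 ± 0.11, adjusted p = 0.0574, lower in 6 of 7) missed the threshold. *Krt7*, *Cldn4*, *Cldn6*, *Cldn7* and *Cldn10* differed by -0.13 to 0.18 with adjusted p of 0.336 to 0.956. Alpha markers summed to 3480 to 33712 CPM in beta-like and beta markers to 2194 to 14920 CPM in alpha-like cells. Neurog3 markers summed to 225 to 2448 CPM (median 576) in beta-like and 178 to 431 CPM (median 310) in alpha-like cells. The part of these markers in the result was not tested. Among the lists, *Cldn9* (2.61 against 14.7 CPM, -2.47 ± 0.39), *Nefm* (20.1 against 84.8 CPM, -2.08 ± 0.32) and the desmosomal linker *Ppl* (5.12 against 11.3 CPM, -1.33 ± 0.31) were lower in beta-like cells, and the polarity gene *Pard3* was higher (56.3 against 19.0 CPM, 2.20 ± 0.24). They were 1 of 5 other claudins, 1 of 4 other intermediate filaments, 1 of 10 desmosome and keratin linkers and 1 of 14 tight junction partners called, beside 1 of 4 other keratins called lower.

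The mesothelium, the epithelial sheet on the organ's surface, is of mesodermal origin and was set against the rest of the mesenchyme. Its keratins were far higher. *Krt7* ranged from 192 to 1172 CPM (median 449.8) against 1.15 to 52.8 CPM in other mesenchyme (median 11.9), *Krt19* from 105 to 1808 CPM (median 469.8) against 0.541 to 61.8 CPM (median 10.4), and *Krt18* from 106 to 397 CPM (median 153) against 5.38 to 81.3 CPM (median 18.9), all without overlap. *Krt8* was at 40.7 to 412 CPM (median 73.7) and overlapped with 2.71 to 111.9 CPM. The log2 folds were 5.11 ± 0.57 for *Krt7* (adjusted p = 2.90e-05), 5.50 ± 0.52 for *Krt19* (adjusted p = 8.28e-06), 3.20 ± 0.43 for *Krt18* (adjusted p = 1.12e-04) and 2.19 ± 0.47 for *Krt8* (adjusted p = 0.00302). Within version 1 and version 2 they were 6.8 and 3.7 for *Krt7*, 6.97 and 4.36 for *Krt19*, 4.26 and 2.3 for *Krt18*, and 3.6 and 1.14 for *Krt8*. In the CD140a-negative libraries, other mesenchyme is what remained after cells with CD140a were removed. The reference class thus differs between the data sets. Among the claudins, *Cldn10* was higher (2.64 ± 0.49, adjusted p = 0.00124, higher in 8 of 8 libraries), with 3.66 in version 1 and 1.94 in version 2 libraries (adjusted p = 0.0781). At E12.5 it was near background, at 5.05 against 0.812 CPM in version 1 and 6.52 against 5.88 CPM in version 2. *Cldn7* was lower at levels near background (3.65 against 7.44 CPM, -1.14 ± 0.30, adjusted p = 0.0114), a call that fell under 2-fold or past the threshold in 6 alternatives. *Cldn3*, *Cldn4* and *Cldn6* were at 2.27 to 9.78 CPM on average in the mesothelium and did not pass the test (adjusted p = 0.210, 0.391 and 0.881). In all, 5 members were called higher and 1 lower of 9, where 10% of 13042 genes were called higher and 7.48% lower. The 7 epithelial markers were higher here too, at 215 to 361 against 10.8 to 100.5 CPM. The 4 epithelial claudins *Cldn3*, *Cldn4*, *Cldn6* and *Cldn7* were at 0 to 21.8 CPM in every mesothelial-like library. Cells with markers of both compartments had been set aside as doublets. The part of epithelial transcripts in the keratin levels was not tested.

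Of all genes, 10% were called higher and 7.48% lower. Tight junction partners had 11 genes called higher and 2 lower of 21 tested (list median 1.20, all genes -0.04), desmosome and keratin linkers 7 higher and 0 lower of 10 (median 1.82). The list of other keratins had 5 (*Krtcap3* among them) and 1 of 8 (median 3.17), other claudins 2 and 0 of 5, and other intermediate filaments 2 and 3 of 8 (median -0.96). *Krt15* was at 95.2 against 2.23 CPM (5.16 ± 0.44), the filament gene *Prph* at 51.9 against 2.79 CPM (4.61 ± 0.48), *Cldn15*, a cation pore, at 83.2 against 4.02 CPM (4.07 ± 0.31) and *Cgn* at 30.8 against 1.55 CPM (4.01 ± 0.37).

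Set against ductal-like cells, which share the mesothelium's simple epithelial form, all 9 tested members were called, 2 higher and 7 lower in the mesothelium, where 15.8% of 12909 genes were called higher and 11.9% lower. *Krt19* (1.27 ± 0.20, adjusted p = 1.93e-04) and *Krt7* (1.03 ± 0.24, adjusted p = 0.00292) were higher, each in 7 of 8 libraries, with the exception at E12.5, where *Krt19* was at 105 against 132 CPM and *Krt7* at 192 against 202 CPM in version 1. The *Krt7* fold was under 2-fold within version 1 (0.93) and without the version 1 E17.5 (0.91) or the version 2 E17.5 library (0.81). *Krt8* (-3.53 ± 0.31) and *Krt18* (-2.65 ± 0.28) were lower, as were *Cldn3*, *Cldn4*, *Cldn6* and *Cldn7* (log2 folds of -5.70 to -6.55) and *Cldn10* (-2.80 ± 0.43), each in 8 of 8 libraries with adjusted p of 1.52e-04 or less. The *Cldn10* gap narrowed with stage. At E12.5 its levels were 5.05 against 148 and 6.52 against 129 CPM (version 1, then version 2). At E17.5 they were 276 against 329 and 248 against 524 CPM. By mean level, *Krt18* and *Krt8* led the keratins in ductal-like cells and *Krt19* and *Krt7* in mesothelial-like cells. At E12.5 in version 1, mesothelial-like *Krt18* (277.5 CPM) was above *Krt7* and *Krt19*, while in version 2 it (106 CPM) was below both. *Prph* (51.9 against 0.594 CPM, 7.90 ± 0.40), *Cldn15* (83.2 against 0.185 CPM, 7.72 ± 0.26) and *Krt14* (43.6 against 0.218 CPM, 7.01 ± 0.44) were higher and *Krt23* was lower (0.111 against 36.0 CPM, -7.11 ± 0.35). Lists had 2 higher and 7 lower of 22 tight junction partners, 2 and 6 of 11 desmosome and keratin linkers, 2 and 4 of 9 other claudins, 3 and 3 (*Krtcap3* among the latter) of 10 on the list of other keratins, and 6 and 0 of 8 other intermediate filaments (median 3.5).

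Endothelial cells, which line the vessels, carried *Cldn5*. It was at 433 to 1459 CPM in endothelial-like cells (median 904) and at 0 to 2.86 CPM in other mesenchyme (median 0.298), with a log2 fold of 11.10 ± 0.41 (adjusted p = 1.72e-12), 12.47 in version 1 and 10.19 in version 2 libraries. The other members were low in both classes, at 3.65 to 19.5 CPM on average in endothelial-like cells. *Krt7* (10.2 against 19.5 CPM, -1.58 ± 0.54, adjusted p = 0.0280) and *Cldn10* (3.65 against 7.32 CPM, -1.18 ± 0.39, adjusted p = 0.0244) were called lower, both at background levels, and neither was called by DESeq2 (adjusted p = 0.240 and 0.136), within either kit, without the library block, with doublets kept, or without the version 2 E12.5 or E17.5 library, while 5 members were called without the version 2 E14.5 or the Fev-Cre library. *Krt8*, *Krt18*, *Krt19*, *Cldn3*, *Cldn4*, *Cldn6* and *Cldn7* had folds of -1.32 to 0.65 with adjusted p of 0.0736 to 0.986. With doublets kept, *Cldn4* (1.29), *Cldn6* (1.03) and *Cldn7* (1.30) were called higher, as was *Cldn6* within version 1 (2.02, adjusted p = 0.0403). Thus 1 member was called higher and 2 lower of 10, where 10% of 11750 genes were called higher and 15.4% lower. Of the lists, tight junction partners had 7 higher and 3 lower of 17, with the endothelial adhesion gene *Esam* at 844 against 17.1 CPM (6.77 ± 0.57). Other intermediate filaments had 1 higher and 5 lower of 8, with the neurofilament genes *Nefl* (0.0744 against 95.8 CPM, -7.50 ± 0.39) and *Nefm* (1.22 against 67.8 CPM, -6.01 ± 0.37) among them. Other keratins had 0 higher and 3 lower of 5, including *Krt14*, which had no UMI in any endothelial-like sum and 17 CPM in other mesenchyme. Other claudins had 1 and 1 of 4 and desmosome and keratin linkers 2 and 0 of 4.

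**Figure D3:**
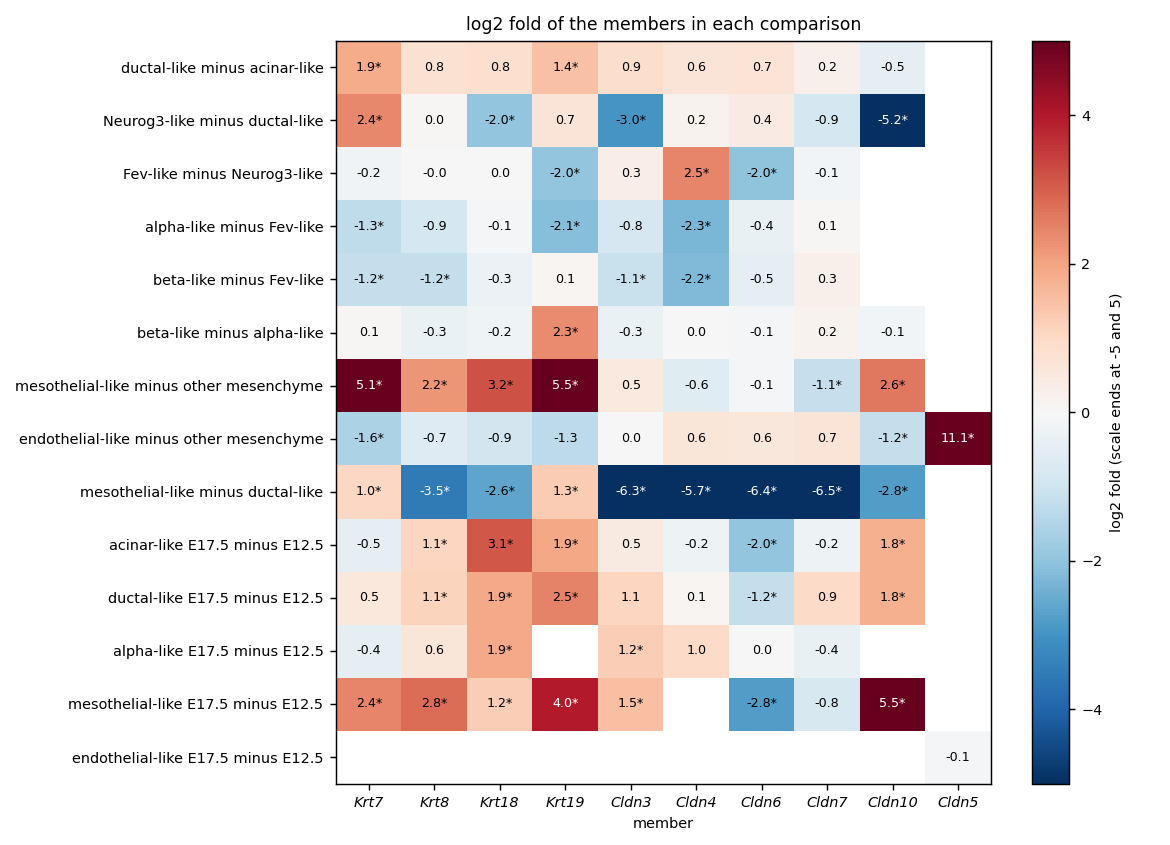
Log2 folds of the 10 genes in 14 comparisons between classes and between stages, with an asterisk where a gene was called and a blank where it was too low to be tested. Positive values mean higher in the first class, or higher at E17.5. The *Cldn5* fold of 11.10 in endothelial-like cells and the claudin folds of -5.70 to -6.55 in the mesothelial-like against ductal-like row are the most extreme.

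Stages were compared in the 7 Swiss Webster libraries, E17.5 against E12.5 with the data set as a term, in classes with at least 20 cells in the E12.5 and E17.5 libraries of both kits. The Neurog3, Fev and beta classes fell short of this, so only their levels are given. Each data set held 1 E12.5 and 1 E17.5 library, and 3 residual degrees of freedom remained. Stage p-values thus measure how data sets that differ in kit and sort disagree, and the spread of the version 1 E14.5 batches. In acinar-like cells *Krt18* went from 236 (version 1) and 192 CPM (version 2) at E12.5 to 1781 and 766 CPM at E17.5, or 7.55-fold and 3.98-fold within kits (3.11 ± 0.35, adjusted p = 2.10e-08). *Cldn6* went from 756 and 520.3 CPM to 198 and 58.4 CPM (-1.96 ± 0.35, adjusted p = 8.60e-05), and *Cldn10* from 178 and 165 CPM to 346 and 376 CPM (1.76 ± 0.32, adjusted p = 1.43e-04). The stages did not overlap for any of them. *Krt19* (36.3 and 36.1 to 66.0 and 91.1 CPM, 1.94 ± 0.37, adjusted p = 1.97e-04) and *Krt8* (357 and 359 to 536 and 433 CPM, 1.09 ± 0.32, adjusted p = 0.0128) also rose, so that 4 members were called higher and 1 lower of 9, where 10% of 11541 genes were called higher and 7.93% lower. Without the version 2 E17.5 library only *Krt18* was called (1 member), and *Krt8* was also lost without either E12.5 library, with totals without secretory products (0.83) and with the data set term dropped (adjusted p = 0.0846). *Cldn3* (0.45 ± 0.31), *Cldn4* (-0.25 ± 0.38) and *Cldn7* (-0.24 ± 0.32) missed the threshold with adjusted p of 0.345, 0.712 and 0.670. *Krt7* fell from 54.5 and 61.9 to 8.25 and 25.8 CPM in plain level but had a fold of -0.47 ± 0.42 after scaling (adjusted p = 0.485). The level of 8.25 CPM comes from a sum of 31 cells and 121311 UMIs (version 1 E17.5), so it rests on very few counts. The median of all genes in this comparison was -0.05 under the scaling used, 0.39 in DESeq2 and -0.40 with totals without secretory products, where 32.1% instead of 55.8% of called genes were higher.

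In ductal-like cells the same members were called, 4 higher and 1 lower of 9, where 4.45% of 10319 genes were called higher and 1.77% lower. *Krt19* went from 132 and 71.1 CPM at E12.5 to 541 and 425 CPM at E17.5, 4.08-fold and 5.99-fold within kits (2.48 ± 0.39, adjusted p = 0.00170). *Krt18* went from 697 and 397 to 2489 and 1214 CPM (1.88 ± 0.32, adjusted p = 0.00306), *Cldn10* from 148 and 129 to 329 and 524 CPM (1.77 ± 0.31, adjusted p = 0.00306) and *Krt8* from 619 and 604 to 1304 and 1113 CPM (1.12 ± 0.30, adjusted p = 0.0418). *Cldn6* went from 1476 and 649 to 523 and 282 CPM (-1.21 ± 0.31, adjusted p = 0.0346). All 5 kept the stages apart. None was called without the version 2 E12.5 library (adjusted p of 0.148 to 0.421), 2 were without the version 2 E17.5 library and 3 without either version 1 library of these stages. With the data set term dropped 1 member, *Krt19*, stayed called, and with Fev-Cre added *Krt8* (adjusted p = 0.0625) and *Cldn6* (adjusted p = 0.0531) were lost. *Cldn3* (1.07 ± 0.32, adjusted p = 0.0725) and *Cldn7* (0.94 ± 0.31, adjusted p = 0.115) missed the threshold, as did *Krt7* (0.53 ± 0.27, adjusted p = 0.370). *Cldn3* was called by DESeq2 (adjusted p = 0.0132), with no low-count filter (0.0217) and without version 1 E14.5 batch 1 (0.00258) or batch 2 (0.0463). *Cldn4* was at 288 and 61.4 CPM at E12.5 and at 224 and 74.9 CPM at E17.5, so that the version 1 and version 2 values lay further apart than the stages.

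The change over stages differed between ductal-like and acinar-like cells for 2 of 9 members by the class-by-stage term, where 10.1% of 12300 genes were called with a larger and 11.1% with a smaller change in ductal-like cells. *Krt18* rose less in ductal-like than in acinar-like cells (-1.23 ± 0.22, adjusted p = 1.55e-05). In plain CPM its rise was 3.57-fold against 7.55-fold in version 1, where the E17.5 acinar-like sum held 31 cells. In version 2 the rise was 3.06-fold against 3.98-fold, so the classes lay closer there. *Cldn7* went from 315 and 292 to 609 and 463 CPM in ductal-like but from 340 and 261 to 181 and 136 CPM in acinar-like cells (1.07 ± 0.24, adjusted p = 6.22e-04), and this difference was under 2-fold without the version 1 E12.5 library (0.91). *Cldn6* differed by 0.80 ± 0.24 (adjusted p = 0.00845), under 2-fold. It passed 2-fold without the version 1 E12.5 library (1.08) and, as *Krt7* did (1.18), with totals without secretory products (1.09). The differences of *Krt7* (0.82 ± 0.32, adjusted p = 0.0547) and *Cldn3* (0.57 ± 0.23, adjusted p = 0.0520) missed the threshold, as did those of *Krt8*, *Krt19*, *Cldn4* and *Cldn10*, at -0.01 to 0.50 with adjusted p of 0.231 to 0.980. Other claudins had 3 larger and 1 smaller of 8, with a list median of 0.0019 against 0.05 for all genes. *Cldn18*, a claudin of stomach and lung, went from 0.154 to 67.3 CPM in acinar-like cells (8.07 ± 0.68) and its change was smaller in ductal-like cells (difference of -8.68 ± 0.96), while *Cldn2* went from 0.239 to 35.8 CPM in ductal-like cells (5.99 ± 0.72) with a change larger by 3.71 ± 0.89. *Synm* (6.11 ± 1.75) and *Nefm* (-4.41 ± 0.97), both under 3.15 CPM on average, were the other list genes named. The list of other keratins had 1 larger and 1 smaller (*Krtcap2*) of 7, tight junction partners 3 and 0 of 22, desmosome and keratin linkers 1 and 0 of 11 and other intermediate filaments 2 and 3 of 7.

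The remaining list genes of the exocrine classes gave the following picture. In acinar-like cells the adhesion gene *Jam3* fell from 98.3 to 4.66 CPM (-5.14 ± 0.54), *Nes*, an intermediate filament of progenitors, rose from 5.94 to 26.0 CPM (3.19 ± 0.59) and *Krt1* fell from 4.56 to 0.130 CPM (-3.50 ± 1.02). The acinar-like lists had 1 higher and 1 lower of 7 other claudins, 2 (*Krtcap2* among them) and 1 of 5 on the list of other keratins, 0 and 2 of 22 tight junction partners, 1 and 0 of 10 desmosome and keratin linkers and 2 and 1 of 7 other intermediate filaments. In ductal-like cells *Krt23* rose from 0.984 to 117 CPM (5.92 ± 0.49) and *Krt17* from 0.0298 to 70.5 CPM (9.16 ± 1.51), while *Cldn9* fell from 110.1 to 8.01 CPM (-3.37 ± 0.42). The ductal-like lists had 2 and 1 of 6 other claudins, 2 and 0 of 5 other keratins, 2 and 1 of 21 tight junction partners, 1 and 0 of 10 desmosome and keratin linkers and 0 and 0 of 2 other intermediate filaments.

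In the mesothelium 7 of the 8 tested members were called over stages. *Krt19* was at 105 and 133 CPM at E12.5, at 393 and 489.6 CPM in the version 1 E14.5 batches, 450.0 in version 2 and 512 in Fev-Cre, and at 1642 and 1808 CPM at E17.5. *Cldn10* was at 5.05 and 6.52 CPM, then at 29.2, 27.0, 38.9 and 29.1 CPM, then at 276 and 248 CPM in the same order. For both genes every E14.5 library lay between the E12.5 and the E17.5 libraries, which are all Swiss Webster, and the Fev-Cre strain has an E14.5 library alone. The log2 folds were 3.96 ± 0.32 for *Krt19* (adjusted p = 2.69e-07) and 5.53 ± 0.34 for *Cldn10* (adjusted p = 1.87e-08), that is 15.7-fold and 13.6-fold for *Krt19* and 54.6-fold and 38-fold for *Cldn10* in plain CPM within version 1 and version 2. The share of cells with a UMI of *Cldn10* reached 47.2% at most, against 1.28% in the lowest library. *Krt7* went from 192 and 212 to 1172 and 893 CPM (2.42 ± 0.30, adjusted p = 1.73e-05) and *Krt8* from 61.2 and 40.7 to 188 and 412 CPM (2.78 ± 0.37, adjusted p = 4.69e-05). Summed mesothelial markers varied from 1027 to 4894 CPM over the libraries of this class, and their part in these changes was not tested.

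*Krt18* also rose in the mesothelium, from 277 and 106 CPM to 357 and 397 CPM (1.23 ± 0.34, adjusted p = 0.0160). *Cldn3* (6.59 to 17.1 CPM on average, 1.5 ± 0.45, adjusted p = 0.0268) and *Cldn6* (8.87 to 0.716 CPM, -2.81 ± 0.67, adjusted p = 0.00681) were called at levels within the immune-like range. In all, 6 members were called higher and 1 lower of 8, where 11.1% of 11517 genes were called higher and 7.21% lower. *Krt7*, *Krt8*, *Krt19* and *Cldn10* stayed called without any 1 library, whereas *Krt18*, *Cldn3* and *Cldn6* were lost without the version 2 E12.5 or E17.5 library, leaving 4. *Cldn3* was also lost with DESeq2 (adjusted p = 0.0757), with the data set term dropped (0.0811) and without version 1 E12.5 (0.0933) or E14.5 batch 2 (0.0786). *Krt18* was lost with the data set term dropped (0.0897) and *Cldn6* with doublets kept (0.493). *Cldn7*, at 2.87 and 1.36 CPM, had a fold of -0.79 ± 0.75 (adjusted p = 0.518). The median of all genes was -0.15 in this comparison and 0.20 in DESeq2. Of the lists, desmosome and keratin linkers had 5 higher and 1 lower of 10 (median 1.08), with *Ppl* rising from 0.105 to 37.2 CPM (7.89 ± 0.78) and the desmosomal cadherin *Dsc2* falling from 22.9 to 0.273 CPM (-4.31 ± 0.59). *Cldn15* rose from 9.39 to 263 CPM (4.78 ± 0.32), 1 of 5 other claudins called higher beside 1 lower. *Synm* rose from 1.26 to 19.4 CPM (4.03 ± 0.57), with 4 higher and 2 lower of 8 other intermediate filaments, 3 and 2 (*Krtcap3* among the latter) of 7 on the list of other keratins and 3 and 1 of 17 tight junction partners.

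In alpha-like cells *Krt18* went from 107 and 135 CPM at E12.5 to 631 and 338 CPM at E17.5 (1.89 ± 0.34, adjusted p = 0.00200) and *Cldn3* from 60.1 and 34.5 to 155 and 71.3 CPM (1.23 ± 0.31, adjusted p = 0.0260). These were 2 of 7 members tested, where 2.69% of 5939 genes were called higher and 2.05% lower. Neither was called without the version 1 E12.5 library or with the data set term dropped, and *Cldn3* was not called by DESeq2 (adjusted p = 0.168), with Fev-Cre added (adjusted p = 0.0616) or without any of the E12.5 or E17.5 libraries. *Krt7*, *Krt8*, *Cldn4*, *Cldn6* and *Cldn7* had folds of -0.44 to 0.98 with adjusted p of 0.135 to 0.989. Of the lists, 1 of 10 tight junction partners was called, *Lsr*, the tricellular junction gene (93.6 to 185 CPM, 1.06 ± 0.26), with 0 called of 2 other claudins, 3 other keratins, 2 desmosome and keratin linkers and 2 other intermediate filaments. In endothelial-like cells *Cldn5* was at 1160.3 and 997 CPM at E12.5, at 793, 1459 and 433 CPM in the 3 E14.5 libraries and at 1139 and 810.4 CPM at E17.5, so its stages overlapped (-0.06 ± 0.39, adjusted p = 0.977). It was the 1 member tested there, 0 were called by edgeR at an adjusted p, 0 at an unadjusted p below 0.05 and 0 by DESeq2, where 2.64% of 4814 genes were called higher and 0.831% lower. *Lmna* (19.0 to 145 CPM, 2.66 ± 0.38) and *Jam2* (23.1 to 121 CPM, 2.01 ± 0.37) were the list genes called, 1 of 3 other intermediate filaments and 1 of 5 tight junction partners, with 0 called of 1 other claudin, 1 other keratin and 2 desmosome and keratin linkers.

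**Figure D4:**
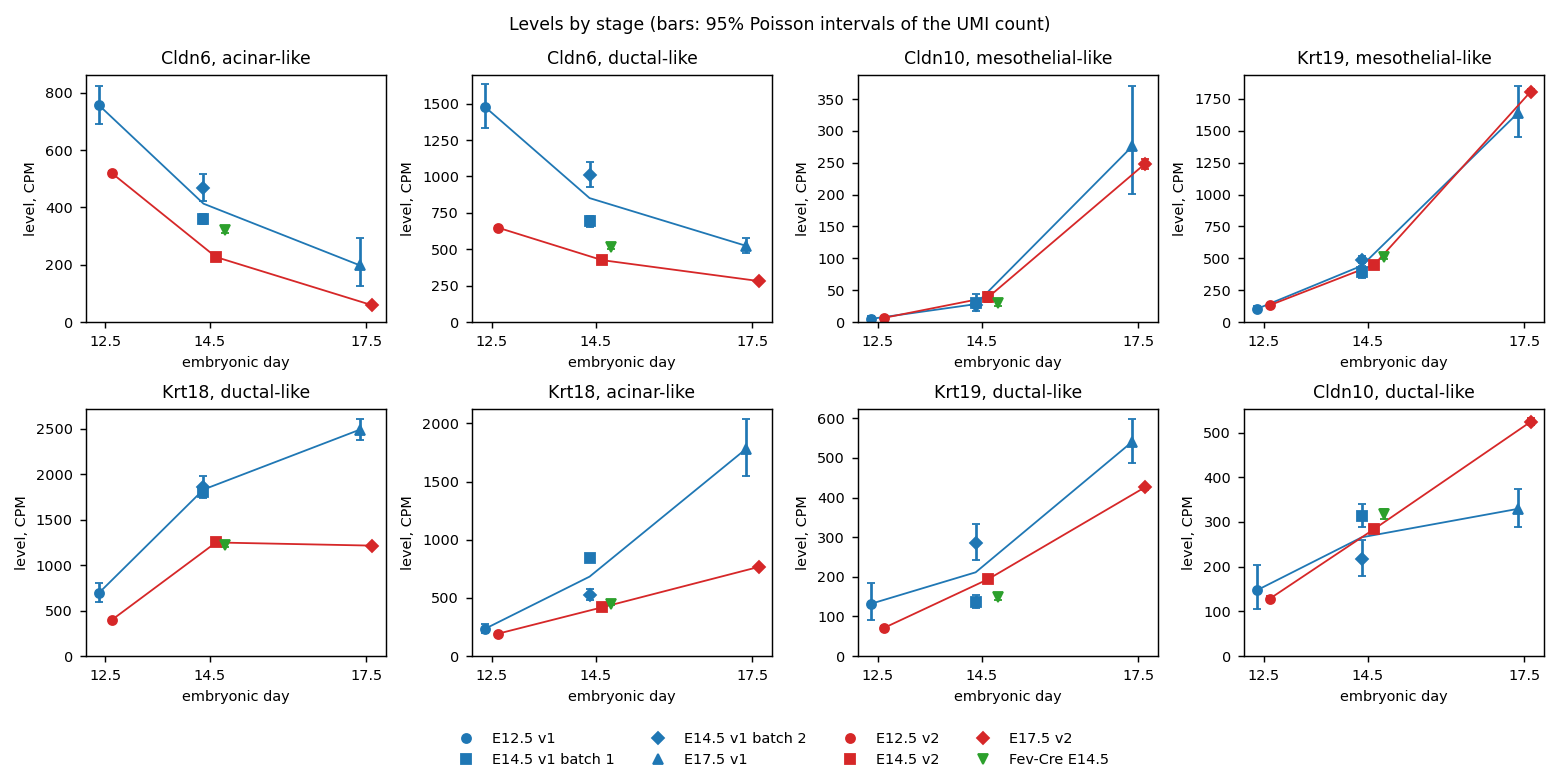
Level in CPM at the 3 stages of 8 gene and class pairs that were called, with 1 point per library, exact 95% Poisson bars, and lines joining the version 1 means and the version 2 libraries. *Krt19* and *Cldn10* climb at each stage in the mesothelial-like panels, from 105 and 133 to 1642 and 1808 CPM and from 5.05 and 6.52 to 276 and 248 CPM, and *Cldn6* declines in the acinar-like and ductal-like panels.

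Levels in the classes without a stage test were as follows. In version 2 libraries the Fev-like class had 482, 859 and 848 CPM of *Cldn4* in order of stage, and 105, 316 and 447 CPM of *Krt18*. *Krt18* was thus lowest at E12.5 in this class as in the exocrine and alpha classes, although the step was not tested. In version 2 it was also lower at E12.5 than at E17.5 in Neurog3-like (122 and 332 CPM) and beta-like cells (121 and 223 CPM). The same held for mesothelial-like cells (106 and 397 CPM) and other mesenchyme (35.9 and 81.3 CPM). It did not hold for neural-like (21.7 and 16.8 CPM) or erythroid-like cells (31.6 and 31.1 CPM). In Neurog3-like cells of version 2, *Krt7* was at 744 CPM at E12.5 and 1389 CPM at E17.5, and *Cldn6* at 516 and 943 CPM, but the version 1 E12.5 library already held 1365 CPM of *Krt7* and 779.8 CPM of *Cldn6*. In beta-like cells of version 2, *Cldn6* was at 265 CPM at E12.5 and 63.9 CPM at E17.5. *Krt7* (472 and 268 CPM), *Krt8* (452 and 268), *Krt19* (65.6 and 35.9) and *Cldn7* (177 and 142) were lower at E17.5 too. *Krt18*, *Cldn3* (30.3 and 37.2 CPM) and *Cldn4* (55.5 and 74.0) were higher. These levels are unscaled CPM, and summed beta markers took 7027 to 401430 CPM of this class over libraries. The part of these markers was not tested. With 1 library per stage and kit, these values have no replicate check.

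Across the 95 sums of a class in a library, the patterns of the members were compared by Pearson's r of log2(CPM + 10), over sums that share libraries, depth and cells, and against the 8748 genes that reached 50 CPM in at least 1 sum. The gene most like *Krt18* was *Krt8* (r = 0.912) and the gene most like *Cldn6* was *Cldn7* (r = 0.940). *Cldn7* was closest to *Rab25* (0.973), *Epcam* (0.959) and *Ap1m2* (0.954), *Cldn4* to *Tm4sf4* (0.948), *Foxa2* (0.945) and *Ap1m2* (0.942), and *Cldn3* to *Kcnk1* (0.924), *Sox9* (0.910) and *Grb7* (0.909). *Epcam*, the general epithelial adhesion gene, led for *Krt8* (0.937, then *Cystm1* 0.918 and *Elf3* 0.916) and stood among the first 3 for *Krt18* (0.884, after *Krtcap3* at 0.902) and *Cldn6* (0.933, before *Kdf1* at 0.923). *Krt7* was closest to *Cystm1* (0.916), *Klc3* (0.889) and *2310030G06Rik* (0.889). *Cldn5* was closest to *Scarf1* (0.968), *Emcn* (0.967) and *Ushbp1* (0.963). *Krt19*, with *Cxadr* (0.796), *Gata6* (0.774) and *Echdc2* (0.763), and *Cldn10*, with *Car9* (0.844), *Gjb1* (0.841) and *Sh2d4a* (0.839), had the least close neighbours. Of the genes named here, *Rab25*, *Epcam*, *Foxa2*, *Elf3*, *Sox9* and *Emcn* were on the marker lists that named the classes. Their r values are therefore not independent of the naming. Among the members themselves, *Cldn3* and *Cldn4*, whose genes are adjacent, had r = 0.765, and *Cldn10* had r = 0.0712 with *Krt7* and 0.0881 with *Cldn4*.

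Within a class, the filament pair *Krt8* and *Krt18* was found together in most ductal-like cells. In thinned ductal-like cells with a *Krt8* UMI, 68.45% to 97.5% also held *Krt18* (median 95% over 8 libraries), against 56.7% to 95.5% (median 89.3%) of those without *Krt8*. In Neurog3-like cells the medians were 49.8% and 30%, with overlapping ranges of 28.0% to 64.4% and 0 to 50%. In acinar-like cells the medians were 70.9% and 71.9%. In the 2 epsilon-like libraries the shares were 43.6% and 52.4% with *Krt8* but spread from 20% to 100% without it, so this class allows no contrast. *Cldn4* was found in a median of 84.6% of Fev-like cells with and 82.5% of those without *Cldn3*, a difference within the spread over libraries (80.7% to 89.6% and 75.7% to 89.1%). These shares are a description over cells of the same libraries.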

How the data were processed

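Single-cell libraries of 10 GEO samples (8 independent libraries) were analysed. The authors deposited raw UMI counts per gene and cell barcode, made with Cell Ranger 1.1 (version 1 kit) or 2.1 (version 2 kit) on mm10 according to the submitters' processing notes, and these counts were not normalised. The 2 wells of the version 2 E17.5 suspension are technical replicates and were summed. Groups came from the sample labels.

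Barcodes with at least 200 genes and genes in at least 3 cells were kept. Each library was clustered on its own (2000 variable genes, 20 principal components, 20 neighbours, Leiden resolution 1, leidenalg 0.10.2, Python 3.11.15), with the members and related genes held out. Endocrine cells were then clustered again over the version 1 libraries together, the Swiss Webster version 2 libraries together, and Fev-Cre alone. Library means were removed in this step. It gave the Neurog3, Fev and hormone classes, so their borders in a library depend on the others of its data set. Clusters were named from marker lists where at least 3 markers were detected and the score reached 0.25. These limits were chosen once the clusters were known. Cells with the markers of another compartment (at least 2 UMIs and 30% of the usual share) were set aside as doublets. Levels are CPM of summed counts, with exact 95% Poisson or binomial intervals that cover counting error only.

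Sums of at least 20 cells per class and library were tested with edgeR 4.0.16 in R 4.3.3 (quasi-likelihood, TMM, filterByExpr), with library as a block between classes and data set as a term between stages, and called at a Benjamini-Hochberg adjusted p below 0.05 and at least 2-fold. DESeq2 1.42.0 was an alternative. The block is the shared cell suspension, and deviations from class means correlated at 0.363 to 0.881 within a library against at most 0.547 between libraries. P-values between classes measure the spread of a fold between pools of embryos, which also differ in stage, kit, sort and strain. Those between stages rest on 3 residual degrees of freedom, or 4 for the class-by-stage term. They measure the disagreement between data sets that differ in kit and sort, and the spread of the version 1 E14.5 batches. Counts were simulated for the comparison of ductal-like with acinar-like cells (13469 genes). All genes had the same dispersion, and changes were placed only in genes above a count limit. At an adjusted p below 0.05 alone, 78% of genes changed 2-fold and 94% of those changed 4-fold were recovered, with 3.91% false calls. The 2-fold requirement was not applied there, so these shares are not the recovery of the calls reported. The members and gene lists were chosen with earlier results of these data known. The text gives the members, counts for the lists and up to 4 list genes per comparison, those with the largest absolute log2 fold among the called, and the 3 genes whose pattern was most like each member. Positions are from GENCODE M21, which need not be the annotation used for counting. Alternatives were other scalings, no low-count filter, doublets kept, Leiden resolution 2, no block, each kit alone (version 2 with Fev-Cre), Fev-Cre added and each library left out. No protein sequence was used here.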

Additional observations from a re-analysis of the deposited data

Results flagged for a closer look

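The change from E12.5 to E17.5 differed between ductal-like and acinar-like cells for *Krt18* and *Cldn7*, as tested by the class-by-stage term in edgeR. These were 2 of 9 tested members, 1 in each direction, where 10.1% of 12300 genes were called with a larger and 11.1% with a smaller change in ductal-like cells, so the members' share lay near that of all genes. The *Krt18* change was smaller in ductal-like cells, with a difference of -1.23 ± 0.22 on the log2 scale (adjusted p = 1.55e-05), although the gene rose in both classes. In plain CPM the rise was 3.57-fold against 7.55-fold in version 1, with 31 acinar-like cells at E17.5, and 3.06-fold against 3.98-fold in version 2. The *Cldn7* change was larger in ductal-like cells, with a difference of 1.07 ± 0.24 (adjusted p = 6.22e-04), and without the version 1 E12.5 library this difference was 0.91, under 2-fold.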

How the results depend on the processing

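The members' folds were recomputed 1760 times over the alternatives, of which 1627 kept their direction and side of the threshold, 84 were no longer called, 21 became called and 28 changed sign by more than 1 SE, none of the latter being called. A sign change within 1 SE of a fold called in neither fit was counted as kept. The counts of levels of at least 50 CPM and of detection in at least 10% of cells stayed within 1.5 times under the alternatives tried. The cause of the changes below was not tested, except that fewer libraries or genes enter some of them.

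The number of members called moved with totals without secretory products for ductal-like against acinar-like cells (5, from 2) and for the class-by-stage difference (4, from 2), with Leiden resolution 2 for beta-like against Fev-like cells (2, from 4), within version 1 for beta-like against alpha-like cells (0, from 1), and for endothelial-like cells against other mesenchyme with DESeq2 (1), without the block (1) and within version 2 (1), from 3. Over stages it moved with the data set term dropped in ductal-like cells (1, from 5) and alpha-like cells (0, from 2), with Fev-Cre added in the same classes (3 and 1), with DESeq2 in alpha-like cells (1), and with no low-count filter in endothelial-like cells (1, from 0, *Krt19* at 6.46 with every E12.5 sum at 0, so the fold is no bound). Leaving out each library gave 2 to 2 called members for ductal-like against acinar-like, 4 to 5 for Neurog3-like against ductal-like, 3 to 4 for Fev-like against Neurog3-like, 3 to 3 for alpha-like and 4 to 4 for beta-like against Fev-like, 1 to 1 for beta-like against alpha-like, 5 to 6 for mesothelial-like and 1 to 5 for endothelial-like against other mesenchyme, and 8 to 9 for mesothelial-like against ductal-like cells. Over stages the range was 1 to 5 in acinar-like, 0 to 6 in ductal-like, 0 to 2 in alpha-like, 4 to 7 in mesothelial-like and 0 to 0 in endothelial-like cells, and 2 to 2 for the class-by-stage difference.

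Without the replicate block (the library term), 2, 4, 3, 3, 4, 1, 4, 1 and 7 members were called in the class comparisons in the order above, and the calls over all genes went from 2042 to 1177, 3362 to 2190, 1565 to 840, 746 to 410, 699 to 345, 759 to 327, 2280 to 1316, 2986 to 1854 and 3578 to 2145. Lost with it were *Krt8* (1.91) and *Cldn7* (-0.79) in the mesothelium against other mesenchyme, *Krt7* (-0.99) and *Cldn10* (-0.61) in endothelial-like cells, and *Krt19* (1.57) and *Cldn10* (-1.80) in the mesothelium against ductal-like cells. No other call of a member was lost without the block.

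Folds that changed sign, none called, were as follows. Against ductal-like cells, in Neurog3-like cells *Krt8* was at -0.078 (Leiden resolution 2) and -0.10 to 0.077 as each library was left out, and *Cldn4* at -0.078 (Leiden resolution 2), -0.24 (version 1) and -0.12 to 0.30 as each library was left out. In Fev-like against Neurog3-like cells, *Krt7*, *Krt8* and *Cldn7* were at 0.0037, 0.15 and 0.041 with totals without secretory products, *Cldn3* at -0.023 with doublets kept, and *Krt7*, *Krt8* and *Krt18* at 0.17, 0.27 and -0.13 within version 1. *Cldn6* was at 0.15 in alpha-like against Fev-like cells (doublets kept), *Krt19* at -0.43 (version 1) and -0.33 (without Fev-Cre) to 0.23 (without version 1 E14.5 batch 2) in beta-like against Fev-like cells, and *Cldn4* at -0.27 (doublets kept) and -0.17 (without version 1 E14.5 batch 2) in beta-like against alpha-like cells. Against other mesenchyme, *Cldn6* was at 0.94 in the mesothelium (version 1), and in endothelial-like cells *Krt8* was at 0.29 and *Krt18* at 0.12 (doublets kept) and *Krt8* at 0.14 (version 1). Over stages, *Cldn4* was at -0.68 (without version 1 E17.5) to 0.44 (without version 2 E17.5) in acinar-like cells and at -0.40 (without version 2 E12.5) to 0.59 (without version 1 E12.5) in ductal-like cells, *Cldn7* at 1.26 (doublets kept) and from -4.81 (without version 2 E17.5) to 4.74 (without version 2 E12.5) in the mesothelium, and the class-by-stage difference of *Krt8* at 0.21 (totals without secretory products) and of *Krt19* at -0.24 (without version 2 E12.5).

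Calls over all genes also moved by over 1.5 times in other settings. Doublets kept gave 944 (Fev-like against Neurog3-like), 335 (alpha-like against Fev-like) and 423 (beta-like against alpha-like). No low-count filter gave 1323, 1306 and 1261 in the 3 hormone class comparisons and 1118, 458 and 311 over stages in ductal-like, alpha-like and endothelial-like cells (from 642, 282 and 167). Version 1 alone gave 1067, 1385, 833, 483, 332 and 1892 for ductal-like against acinar-like, Neurog3-like against ductal-like, Fev-like against Neurog3-like, alpha-like against Fev-like, beta-like against alpha-like and mesothelial-like against ductal-like cells, and version 2 alone gave 1034 in the first. The data set term dropped gave 1096, 324, 55, 1397 and 26 over stages (from 2072, 642, 282, 2103 and 167), DESeq2 gave 179 in alpha-like and 99 in endothelial-like cells and 998 for the class-by-stage difference (from 2601), and Fev-Cre added gave 103 in endothelial-like cells. Without the version 2 E12.5 library the stage calls were 948, 107, 114, 859 and 44, and 755 for the class-by-stage difference, and without version 1 E14.5 batch 1 they were 1431 in ductal-like and 545 in alpha-like cells. Beta-like against alpha-like cells had 404 calls without version 2 E17.5. Without the version 2 E17.5 library the stage calls were 244, 292, 69, 366 and 70, and 297 for the class-by-stage difference, where 74.9% instead of 47.7% of calls were higher with totals without secretory products. The median of all genes moved from -0.04 to 0.26 with DESeq2 in Neurog3-like against ductal-like cells, and from 0.05 to -0.46 (DESeq2) and 0.43 (totals without secretory products) for the class-by-stage difference.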
